A study of Mus musculus with 5 samples.

Results

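Npas4 and 7 related transcription factor genes, Npas1, Npas2, Npas3, Arnt, Arnt2, Bhlhe40 and Bhlhe41, were followed in the mouse hippocampus after kainic acid seizures. They were chosen by gene symbol, as a family group around Npas4, and are 8 of the 55385 genes in the count files. The study concerned exon usage under neuronal activity; here gene levels were compared. Seizures were set off with kainic acid, an agonist of kainate-type glutamate receptors, injected intraperitoneally at 20 mg/kg in phosphate-buffered saline. All mice were C57/bl6 males aged 3 months, and total RNA of the dissected hippocampus was sequenced with a strand-marking kit. The 5 libraries were 1 untreated control, 1 from 1 h after seizure onset, 2 from 4 h (replicate 1 and replicate 2) and 1 from 8 h. By the study's methods seizures were graded on a behavioural scale, the modified Racine scale, and stage 5 was needed for a mouse to be included. SL327, an inhibitor of MEK that the protocol text names for other animals, is not a treatment of any of these 5 libraries. The labels say that the work was done in the dark phase and at the same times throughout, without saying whether this refers to injection or to sampling. No vehicle-injected library was used here and the clock hour of each library is not given, so seizure, injection and hour of sampling cannot be told apart in a comparison with the control. The comparisons with the control share that 1 library, and each direction at 1 h or 8 h rests on 1 kainic acid library. Nor is it stated whether a library holds 1 animal or several, so the spread between the 4 h libraries may be partly technical. Every test rests on that spread, apart from 1 alternative that assumed a variation.

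bHLH-PAS proteins pair through a helix-loop-helix and a PAS domain and bind DNA as dimers. NPAS4 is a neuron-restricted member whose gene is switched on by calcium entry during activity, which dimerises with ARNT or ARNT2, and which is known in the hippocampus for shaping inhibitory synapses through targets such as Bdnf. NPAS1 and NPAS3 are brain factors of the same family, and NPAS2 is a relative of CLOCK that pairs with BMAL1, the product of Arntl. BHLHE40 and BHLHE41, also called DEC1 and DEC2, lack a PAS domain, bind E-box sequences as repressors and damp the transcription that CLOCK and BMAL1 drive.

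Counts assigned to genes came to 19100374 in the control library, 17744508 at 1 h, 18250114 and 19109204 in replicates 1 and 2 at 4 h, and 16612225 at 8 h. Levels are given as normalized counts per 1000000 counts (CPM), scaled by edgeR's TMM factors. A floor of 3 counts was worth between 0.151 and 0.178 CPM, and the lowest count of any member in any library was 78. Intervals are exact 95% intervals of the counts and cover counting error only. Replicate 1 at 4 h stood apart from the other libraries. The 4 choroid plexus markers (Ttr, Folr1, Kl and Clic6) summed to 28.8 CPM in it, against 3952 in the control, 1670.4 at 1 h, 4228 in replicate 2 and 3065 at 8 h. None of these 4 genes was at 0 in any library, and Ttr, the most abundant, had 16.3 CPM in replicate 1 and 3967 in replicate 2. The 3 thalamus markers (Rora, Prkcd and Tcf7l2) summed to 426 CPM in replicate 1, against 106 in the control, 119 at 1 h, 176 in replicate 2 and 81.5 at 8 h. Reads outside any gene made up 33.1% of read counts in replicate 1 and between 24.7% and 30.9% in the other libraries. The part of these differences in the 4 h results was not tested, and the members' 4 h fold changes against the control are given with and without replicate 1, as are the counts of list genes at least 2-fold from the control. Without it no residual degree of freedom is left, so the calls at 4 h have no such counterpart, and the marker results are given for the libraries as they are. In bulk tissue, fewer cells of a type and less RNA per cell cannot be told apart. Between the 4 h libraries the standard deviation of the log2 ratio over genes was 0.74, and 2271 of 19768 genes were at least 2-fold apart.

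Npas4 was low in the untreated hippocampus and was the gene furthest above the control 1 h after seizure onset. It had 3.91 CPM in the control library, 694 at 1 h, 129.9 in replicate 1 at 4 h, 4.91 in replicate 2 at 4 h and 5.13 at 8 h. The 1 h library and replicate 1 were high, while replicate 2 and the 8 h library lay close to the control, so the 4 h libraries fell on both sides of a wide gap. The 1 h level was 177 times the control (95% interval 142 to 224). Replicate 1 at 4 h reached 33.2 times the control (26.5 to 42.1). For replicate 2 the ratio was 1.25 (0.919 to 1.72) and for 8 h it was 1.31 (0.956 to 1.80), differences that were not detectable at this depth. The fitted log2 fold change was 7.43 (SE 2.29) at 1 h, the largest positive value of all 19768 genes tested, with an adjusted p of 1 (edgeR quasi-likelihood, Benjamini-Hochberg). At 4 h it was 4.07 (SE 1.92, higher in 2 of 2 libraries), rank 25 from the top, with an edgeR adjusted p of 0.480. Without replicate 1 the 4 h value was 0.32, and without replicate 2 it was 5.01. At 8 h the log2 fold change was 0.38 (SE 2.0, edgeR adjusted p 1.00).

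Npas4 (ENSMUSG00000045903.9) lies on chromosome 19 from 4984355 to 4990316 on the minus strand (GRCm38), with 3 annotated transcripts and 6 blocks of exon sequence, none of which overlaps another gene. Its promoter is shown because Npas4 had the largest fitted value at 1 h. Promoters were read from RefSeq (GRCm38.p6), matched for 7 of the 8 genes (not Bhlhe40), from 250 bases before to 50 bases after the RefSeq start. That of Npas4 is chr19:4989922-4990221 on the minus strand. All of it lies inside the gene as annotated above, whose minus-strand start is at 4990316, so distances here hold for the RefSeq start alone. Capitals mark TGACG, the core of the cAMP response element (CRE) bound by CREB, searched on both strands.
Npas4: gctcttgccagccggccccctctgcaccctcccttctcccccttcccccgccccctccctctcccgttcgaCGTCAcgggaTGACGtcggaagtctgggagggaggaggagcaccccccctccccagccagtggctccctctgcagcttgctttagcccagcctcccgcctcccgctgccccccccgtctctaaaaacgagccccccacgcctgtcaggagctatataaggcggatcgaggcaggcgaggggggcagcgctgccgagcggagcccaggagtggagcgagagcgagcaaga
The core was present 2 times, beginning 179 bases before the RefSeq start on the reverse strand and 169 bases before it on the forward strand. TGACG was found in 20.8% of all 32851 promoters, and in 2 of the 7 available here, Npas4 and Arnt. The full palindrome TGACGTCA, which contains the core on both strands, was in 1.79% of all promoters and in 1 of the 7, that of Arnt. A match is a description of the letters and not of a bound site.

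**Figure D1:**
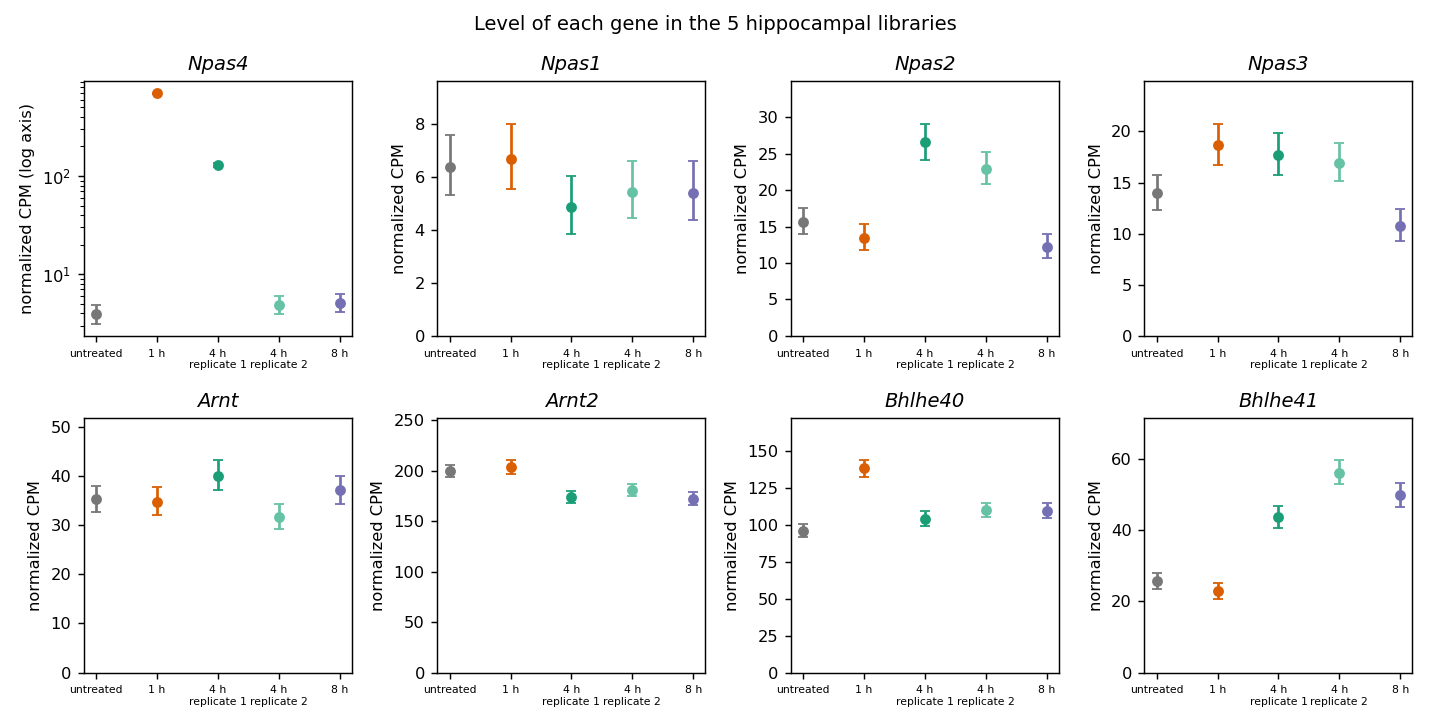
Normalized CPM of the 8 genes in each of the 5 libraries, with exact 95% Poisson intervals as bars; the axis is logarithmic for Npas4 and starts at 0 for the other genes. Npas4 was at 694 CPM at 1 h and 129.9 in replicate 1 at 4 h, and between 3.91 and 5.13 in the other libraries.

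The members' counts were read against the share of all genes past the same threshold. A member was counted as called at an adjusted p under 0.05 in the fit over all 19768 genes that passed the filter on low counts, which 8 of the 8 members did. edgeR's quasi-likelihood test called 0 of 8 members at 1 h (0% of all genes tested), 0 at 4 h (0.00506%), 0 at 8 h (0%), 0 for 4 h against 1 h (0.00506%) and 0 for 8 h against 4 h (0%). The 1 gene that edgeR called, at 4 h against the control and against 1 h, was ETV3L, named after its values were seen. DESeq2 also called 0 of 8 members in each comparison, where it called 0.449%, 1.70%, 0.235%, 0.823% and 0.920% of the genes to which it gave an adjusted p, in the same order. limma-voom called 0 of 8 members in each. At an unadjusted p under 0.05 in edgeR, 2 members were counted at 1 h (Npas4 and Bhlhe40, against 2.42% of all genes), 2 at 4 h (Npas2 and Bhlhe41, 11.6%), 1 at 8 h (Bhlhe41, 4.51%), 2 for 4 h against 1 h (Npas2 and Bhlhe41, 7.94%) and 2 for 8 h against 4 h (Npas2 and Npas3, 8.73%). By size alone, Npas4 was the 1 member at least 2-fold higher at 1 h (4.14% of all genes) and at 4 h (7.81%), and 0 were at 8 h (5.24%). None was at least 2-fold lower than the control at 1 h (2.53%), 4 h (2.21%) or 8 h (2.47%). Between times, Bhlhe41 was at least 2-fold higher at 4 h than at 1 h (5.64%) and Npas4 lower (2.28%), but without replicate 2 no member was at least 2-fold higher (7.87%). At 8 h against 4 h, 0 were at least 2-fold higher (3.22%), and Npas4 and Npas2 were lower (5.19%), while without replicate 1 no member was at least 2-fold lower (3.80%). The members' median log2 fold change was 0.05, 0.23 and -0.07 in time order, against -0.005, 0.01 and 0.01 over all genes. Without replicate 1, 1 member was still at least 2-fold above the control at 4 h, but it was Bhlhe41 in place of Npas4, against 5.33% of all genes.

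**Figure D2:**
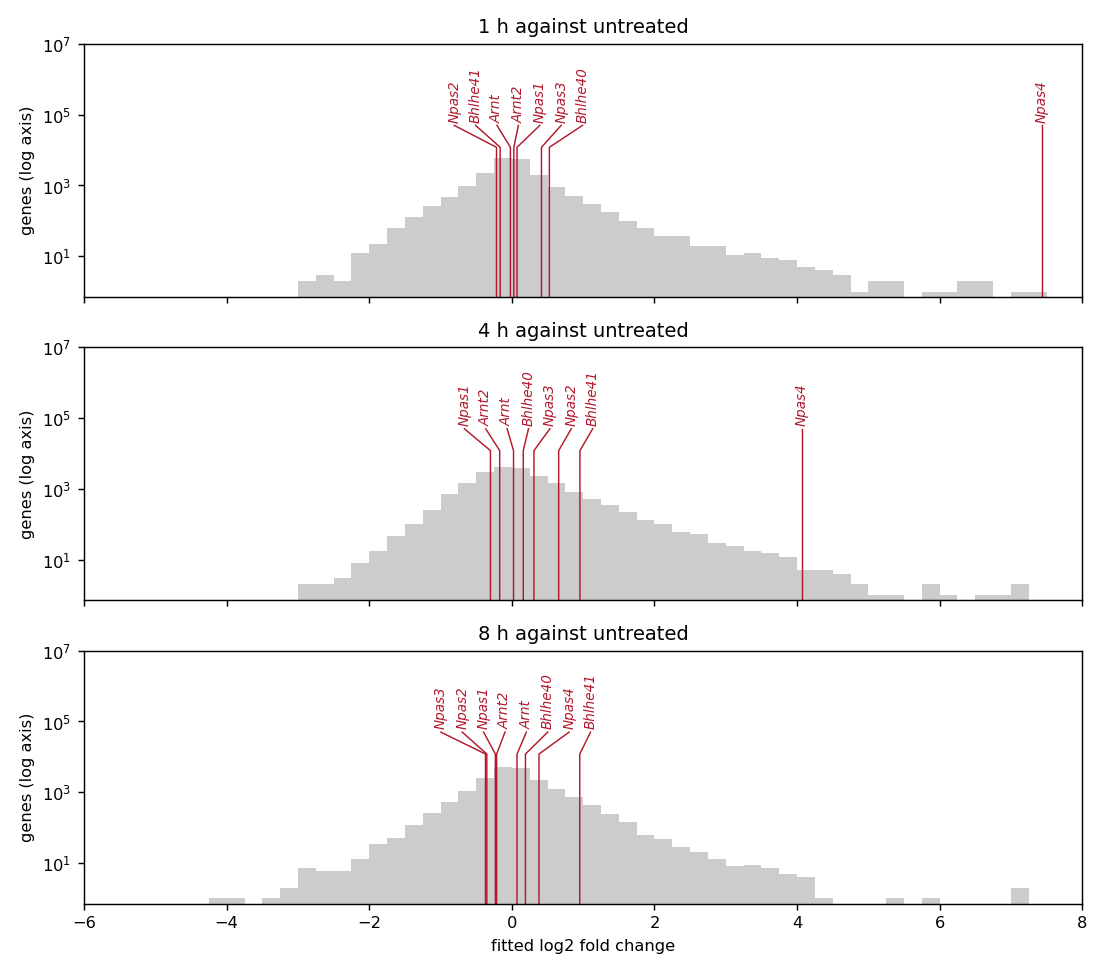
Number of genes (log axis) by fitted log2 fold change against the untreated library at 1 h, 4 h and 8 h, in steps of 0.25, with red lines at the 8 members. Npas4 stands at the right edge at 1 h (7.43) and lies far to the right at 4 h (4.07), while the other 7 lie between -0.37 and 0.95.

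The distance between the 4 h libraries was larger for Npas4 than for 99.8% of the genes. Replicate 1 had 26.4 times the level of replicate 2 (mean 67.4 CPM, SD 88.4, n = 2), while the other 7 members differed by ratios from 0.777 for Bhlhe41 to 1.26 for Arnt. The immediate early genes Fos, Arc and Egr1, whose transcription follows neuronal firing within minutes, served as a check of the seizure response. Fos had 10.8 CPM in the untreated library, 998 after 1 h, 519 and 70.3 in the 4 h pair and 17.2 after 8 h. Arc, a synaptic activity gene, had 147, 2019.8, 2590.2 and 927, and 151 CPM. Egr1 had 29.1, 215, 99.0 and 30.9, and 19.0 CPM. Each was highest at 1 h or in replicate 1, and replicate 1 exceeded replicate 2 by 7.38 times for Fos, 2.79 for Arc and 3.21 for Egr1. At 1 h and 4 h 3 of 3 were at least 2-fold above the control (4.14% and 7.81% of all genes), and without replicate 1 the 4 h count was 2 of 3 (5.33%). edgeR and DESeq2 called 0 of these 3 at either time. In edgeR 3 at 1 h and 2 at 4 h had an unadjusted p under 0.05 (2.42% and 11.6% of all genes). Npas4 at 4 h against 1 h had a log2 fold change of -3.36 (SE 1.43, edgeR adjusted p 0.640), and -7.11 without replicate 1. For 8 h against 4 h it was -3.69 (SE 1.87, edgeR adjusted p 0.633), and 0.06 without replicate 1. Without replicate 2 the Npas4 values were -2.42 at 4 h against 1 h and -4.63 at 8 h against 4 h.

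**Figure D3:**
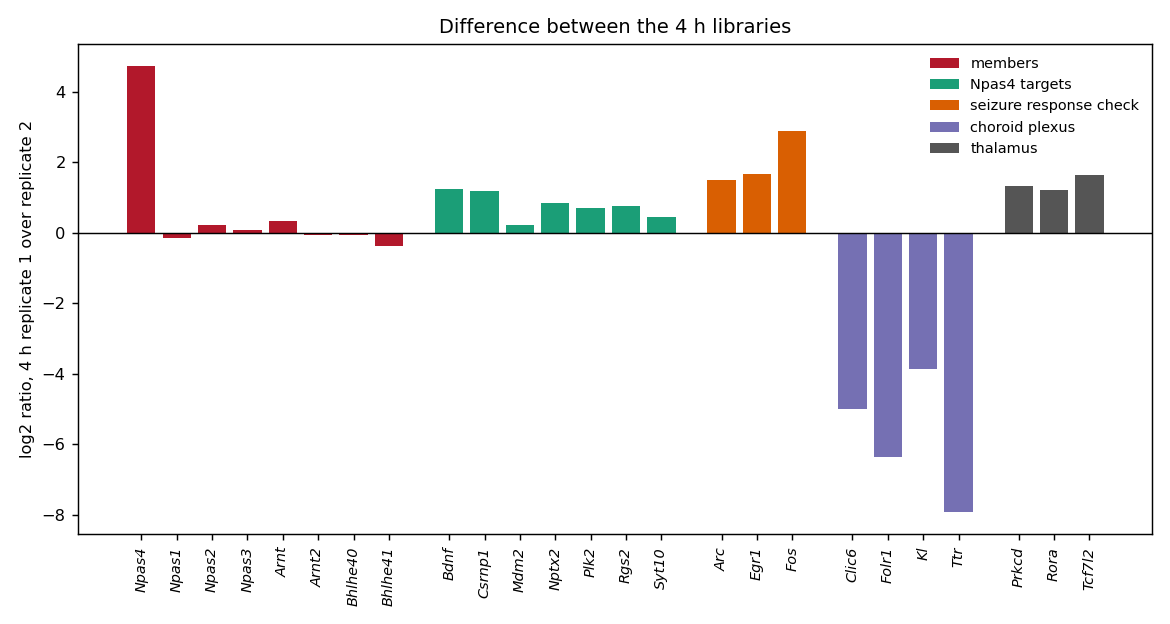
Log2 ratio of replicate 1 to replicate 2 at 4 h for the 8 members, the listed NPAS4 targets, the seizure response genes, and the choroid plexus and thalamus markers, 1 bar per gene. Npas4 stands at 4.72 and the other members lie between -0.36 and 0.34.

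Most listed targets of NPAS4 were above the control at 1 h and in both 4 h libraries. Of the 7 listed, 5 (Bdnf, Nptx2, Csrnp1, Plk2 and Rgs2) were at least 2-fold above the control at 1 h and at 4 h, the latter also without either 4 h library. The share of all genes at least 2-fold higher was 4.14% at 1 h and 7.81% at 4 h. DESeq2 called 3 of the 7 at 1 h (0.449% of the genes to which it gave an adjusted p), 5 in the 4 h fit (1.70%) and 1 after 8 h (0.235%), each of them higher. edgeR called 0 of 7 in each comparison. At these times 5, 6 and 2 had an unadjusted p under 0.05 in edgeR, against 2.42%, 11.6% and 4.51% of all genes. Nptx2, a neuronal pentraxin of excitatory synapses, had 17.3 CPM in the untreated library, 198 after 1 h, 720.5 and 401 in the 4 h pair and 89.8 after 8 h. Bdnf, a neurotrophin, had 43.6 CPM in the untreated library, 208 after 1 h, 753 and 316 in the 4 h pair and 96.6 after 8 h. Both were highest in replicate 1, and both exceeded the control in 4 of 4 kainic acid libraries. In replicate 2, where Npas4 was at 1.25 times the control, Nptx2 stood at 23.2 times, Bdnf at 7.25, Csrnp1 at 8.93 and Plk2 at 3.38 times. At 1 h, where Npas4 stood at 177 times the control, the ratios were 11.5 for Nptx2, 4.78 for Bdnf, 7.70 for Csrnp1 and 3.90 for Plk2. The listed targets that did not reach 2-fold at 1 h or 4 h were Syt10 and Mdm2. At 8 h, 3 of the 7 were at least 2-fold above the control (5.24% of all genes) and 1 was lower (2.47%), Syt10 at 0.307 times. At 8 h against 4 h, 6 of the 7 were at least 2-fold lower (5.19%), and DESeq2 called 3 of them (0.920%). The median log2 fold change of the list was 2.25, 2.60 and 0.85 in time order. Whether these genes followed NPAS4 was not tested.

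The dimer partners of NPAS4 stayed near their control levels. Arnt2, the neuronal ARNT, had 199.7 CPM in the untreated library, 204 after 1 h, 174 and 181 in the 4 h pair and 172 after 8 h. Arnt, the broadly used partner, had 35.3 CPM in the untreated library, 34.8 after 1 h, 40.0 and 31.7 in the 4 h pair and 37.1 after 8 h. For Arnt2 the 4 h and 8 h libraries lay below the control and 1 h libraries, by a ratio of 0.862 (0.822 to 0.904) at 8 h, and for Arnt the 4 h libraries lay on both sides of the control. The log2 fold changes of Arnt2 were 0.03 (SE 0.18) for 1 h, -0.17 (SE 0.16) for the 4 h pair and -0.21 (SE 0.18) for 8 h, with -0.14 at 4 h without replicate 1, and with scaling by library size alone the 1 h value was -0.05 where the median of all genes was -0.08. Those of Arnt were -0.02 (SE 0.27), 0.02 (SE 0.23) and 0.07 (SE 0.27), and at 4 h the value was -0.11 with scaling by library size alone, as was the median of all genes, and -0.15 without replicate 1. edgeR's adjusted p was between 0.699 and 1 for both genes against the control. Levels were also taken per kilobase of exon, to set different genes side by side. The length is that of all annotated exons and not of the transcripts expressed here. Genes with many annotated transcripts (13 for Arnt2 and 11 for Arnt, against 3 for Npas4) may thus be scaled too low. On this scale the control library held 26.0 CPM of Arnt2, 20.4 of Bhlhe40, 4.41 of Arnt, 3.83 of Bhlhe41, 3.27 of Npas2, 2.32 of Npas3, 2.12 of Npas1 and 0.946 of Npas4. At 1 h Npas4 came first with 168 CPM per kilobase, ahead of Bhlhe40 with 29.3, Arnt2 with 26.5 and Arnt with 4.34. In replicate 1 at 4 h Npas4 was still first with 31.4, and in replicate 2 it was last of the 8 with 1.19, as it was at 8 h with 1.24. At 4 h, the time with 2 libraries, the per-kilobase values of Arnt2 (22.6 and 23.5) and Bhlhe40 (22.1 and 23.4) overlapped, as did those of Npas2 (5.55 and 4.79) and Arnt (5.0 and 3.96). Within each of these libraries Arnt2 was above Bhlhe40 and Npas2 above Arnt, and the differences were not tested.

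Arnt (ENSMUSG00000015522.18) lies on chromosome 3 from 95434388 to 95497240 on the plus strand, and Arnt2 (ENSMUSG00000015709.9) on chromosome 7 from 84246278 to 84410176 on the minus strand. The Arnt promoter, chr3:95434140-95434439 on the plus strand, is shown beside that of Npas4 because it holds the full CRE in a gene whose level was near the control. Capitals mark TGACGTCA, which began 239 bases before the start; a further TGACG, 214 bases before the start, is left in lower case.
Arnt: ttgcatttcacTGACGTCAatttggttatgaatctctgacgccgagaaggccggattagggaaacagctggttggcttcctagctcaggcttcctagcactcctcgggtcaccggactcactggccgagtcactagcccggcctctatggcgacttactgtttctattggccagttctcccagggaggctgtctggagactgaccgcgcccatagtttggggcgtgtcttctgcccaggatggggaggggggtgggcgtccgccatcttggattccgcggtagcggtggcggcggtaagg

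Npas1 and Npas3, brain factors of the family, were within 1.34 times the control in every library. Npas1 (ENSMUSG00000001988.9) lies on chromosome 7 from 16455721 to 16477728 on the minus strand, and Npas3 (ENSMUSG00000021010.8) on chromosome 12 from 53248677 to 54072175 on the plus strand. Npas1 had 6.37 CPM in the untreated library, 6.71 after 1 h, 4.86 and 5.44 in the 4 h pair and 5.41 after 8 h. Npas3 had 14.0 CPM in the untreated library, 18.6 after 1 h, 17.7 and 16.9 in the 4 h pair and 10.8 after 8 h. The intervals of the Npas1 ratios to the control all included 1, so a difference was not detectable at this depth. Npas3 was above the control at 1 h (ratio 1.34, 1.14 to 1.57) and in both 4 h libraries, and below it at 8 h (0.772, 0.638 to 0.932). Its log2 fold changes were 0.42 (SE 0.28) for 1 h, 0.31 (SE 0.25) for the 4 h pair and -0.37 (SE 0.29) for 8 h, and -0.68 (SE 0.25) for 8 h against 4 h, with edgeR adjusted p values of 1, 0.654, 1.00 and 0.553. For Npas1 they were 0.07 (SE 0.39), -0.30 (SE 0.34) and -0.23 (SE 0.40) against the control. Without replicate 1 the 4 h values were 0.27 for Npas3 and -0.22 for Npas1.

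Bhlhe40 and Bhlhe41 code for paralogous repressors, but their values differed in time. Bhlhe40 had 95.8 CPM in the untreated library, 138 after 1 h, 104 and 109.9 in the 4 h pair and 109 after 8 h. Bhlhe41 had 25.7 CPM in the untreated library, 23.0 after 1 h, 43.7 and 56.3 in the 4 h pair and 49.9 after 8 h. Bhlhe40 was highest at 1 h, with the later libraries between that value and the control, whereas Bhlhe41 was near the control at 1 h and higher in the 3 later libraries, whose lowest value was above both the control and the 1 h values. The Bhlhe40 ratio to the control was 1.44 (1.36 to 1.53) after 1 h, 1.09 and 1.15 for the 4 h pair and 1.14 after 8 h. The Bhlhe41 ratio was 0.892 (0.781 to 1.02) for 1 h, 1.70 (1.52 to 1.90) and 2.19 (1.96 to 2.43) for the 4 h pair and 1.94 (1.74 to 2.17) for 8 h. The log2 fold change of Bhlhe40 was 0.53 (SE 0.19, edgeR adjusted p 1) for 1 h, 0.16 (SE 0.16, edgeR adjusted p 0.730) for the 4 h pair and 0.19 (SE 0.19, edgeR adjusted p 1.00) for 8 h. For Bhlhe41 it was -0.16 (SE 0.28, edgeR adjusted p 1) for 1 h, 0.95 (SE 0.25, edgeR adjusted p 0.326) for the 4 h pair and 0.95 (SE 0.27, edgeR adjusted p 0.999) for 8 h. Between times, Bhlhe41 at 4 h against 1 h had a log2 fold change of 1.12 (SE 0.25, edgeR adjusted p 0.475, higher in 2 of 2 libraries), and Bhlhe40 one of -0.37 (SE 0.16, edgeR adjusted p 0.643). Without replicate 1 the Bhlhe41 value at 4 h was 1.12 against the control, and without replicate 2 it was 0.76, with 0.93 against 1 h. For Bhlhe40 the 4 h value without replicate 1 was 0.20. That the paralogs differ in their time course was not itself tested.

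**Figure D4:**
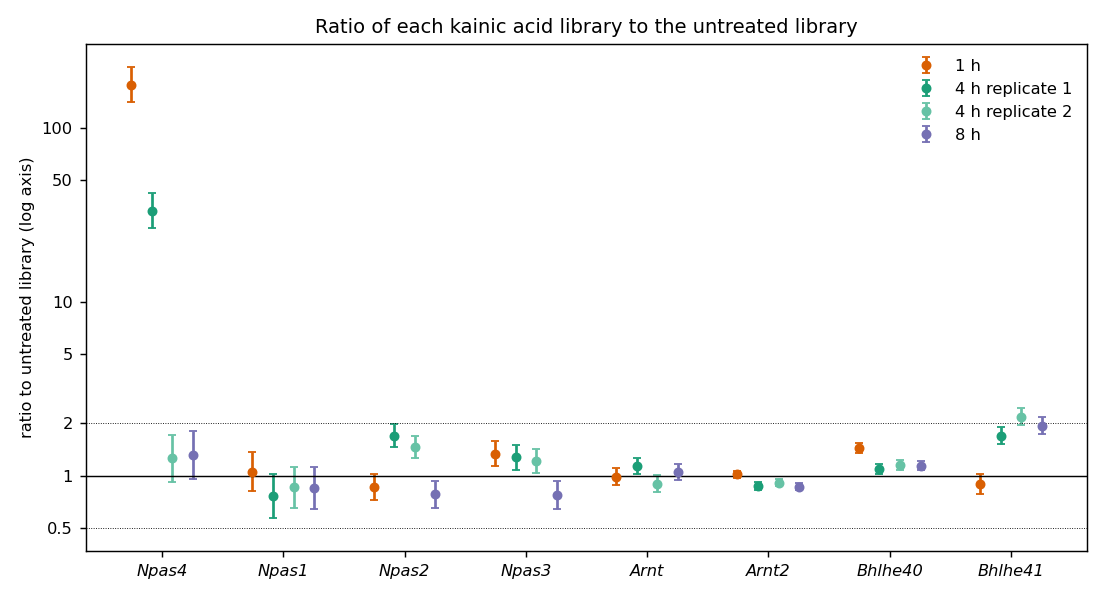
Ratio of each kainic acid library to the untreated library for the 8 genes (log axis), with exact 95% binomial intervals; dotted lines mark 2-fold. Bhlhe41 lies between 1.70 and 2.19 in the 4 h and 8 h libraries and at 0.892 at 1 h, and the partners Arnt and Arnt2 lie between 0.862 and 1.13.

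Both genes are on chromosome 6, Bhlhe40 (ENSMUSG00000030103.11) from 108660629 to 108666925 on the plus strand and Bhlhe41 (ENSMUSG00000030256.11) from 145858243 to 145865558 on the minus strand. The promoter of Bhlhe41, chr6:145865371-145865670 on the minus strand, is shown because it holds the E-box CACGTG, the palindrome that both BHLHE proteins and CLOCK with BMAL1 bind, marked in capitals.
Bhlhe41: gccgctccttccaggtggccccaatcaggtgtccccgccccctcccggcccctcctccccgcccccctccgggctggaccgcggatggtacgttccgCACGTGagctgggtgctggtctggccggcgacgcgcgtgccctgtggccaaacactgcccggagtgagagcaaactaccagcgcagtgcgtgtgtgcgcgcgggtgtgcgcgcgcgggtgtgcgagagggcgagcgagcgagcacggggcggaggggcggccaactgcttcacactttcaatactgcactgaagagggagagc
The E-box began 153 bases before the start. CACGTG was in 7.15% of all promoters of this length and in 1 of the 7 available here. Its last 5 letters ACGTG, which any match of CACGTG contains and which are also the core that HIF proteins bind with ARNT, were in 19.6% of all promoters and in 3 of the 7, those of Npas2, Npas3 and Bhlhe41. Exons of Bhlhe41 share 1280 bases with the gene Gm43909 on the opposite strand, those of Arnt2 share 214 with Gm30873, those of Bhlhe40 share 118 with 0610040F04Rik and those of Npas3 share 83 with 1700060O08Rik. Whether the counting used strand is not given in the sources used here, so reads there cannot be assigned with certainty. Counts given to these opposite-strand genes reached at most 22 for Gm43909, 10 for 0610040F04Rik, 2 for Gm30873 and 0 for 1700060O08Rik in a library.

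Npas2 (ENSMUSG00000026077.15, chromosome 1 from 39193731 to 39363236, plus strand), which pairs with BMAL1 in the clock, was higher in both 4 h libraries than in any other. It had 15.7 CPM in the untreated library, 13.5 after 1 h, 26.6 and 22.9 in the 4 h pair and 12.2 after 8 h. The ratio to the control was 1.70 (1.47 to 1.97) and 1.46 (1.26 to 1.70) for the 4 h pair, against 0.782 (0.654 to 0.934) after 8 h, so the 4 h libraries did not overlap the others. Its log2 fold change was -0.22 (SE 0.29) for 1 h, 0.66 (SE 0.25) for the 4 h pair and -0.35 (SE 0.29) for 8 h against the control, with edgeR adjusted p values of 1, 0.421 and 1.00. Without replicate 1 the 4 h value was 0.55. For 8 h against 4 h it was -1.01 (SE 0.26, edgeR adjusted p 0.476), and -0.90 without replicate 1. Arntl, the gene of BMAL1, had 30.7 CPM in the untreated library, 29.2 after 1 h, 62.6 and 52.3 in the 4 h pair and 53.2 after 8 h. It was high in the same 3 libraries as Bhlhe41, and Clock, which lies between 163 and 209 CPM, was between 0.966 and 1.24 times the control.

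Of 11 clock genes with E-box or related control, 2 were at least 2-fold above the control at 1 h (4.14% of all genes). At 4 h 2 were above (7.81%) and 2 below (2.21%), and 6 were below at 8 h (2.47%). edgeR called 0 at each time, and 3, 7 and 8 had an unadjusted p under 0.05 in edgeR (2.42%, 11.6% and 4.51% of all genes). DESeq2 called 2 higher at 1 h (Per1 and Ciart), 1 higher at 4 h (Per2) and 1 lower at 8 h (Dbp). Per1, a repressor of CLOCK and BMAL1, had 35.8 CPM in the untreated library, 168 after 1 h, 74.0 and 42.8 in the 4 h pair and 18.1 after 8 h. Ciart, another repressor of that pair, had 11.2 CPM in the untreated library, 59.2 after 1 h, 18.5 and 7.61 in the 4 h pair and 2.68 after 8 h. Dbp, an output gene of the clock, had 38.3, 37.5, 14.5 and 20.2, and 8.03 CPM. The list's median log2 fold change was 0.08, -0.31 and -1.05 in time order. Without replicate 1, the 4 h counts were 2 above and 1 below, and without replicate 2 they were 3 and 1. The hour of day and the time after seizure onset cannot be told apart in these values or in those of Bhlhe41 and Npas2.

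**Figure D5:**
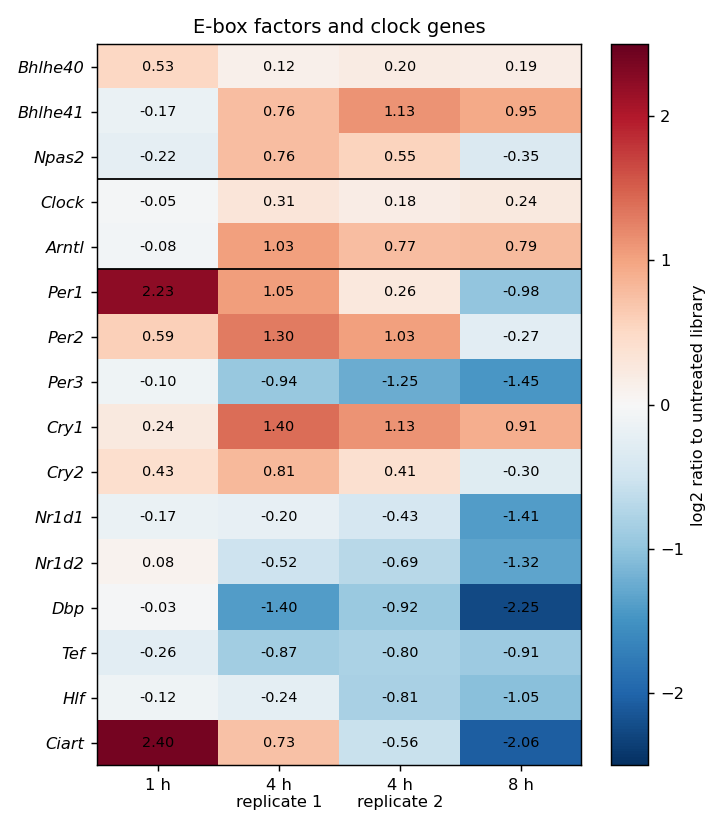
Log2 ratio of each kainic acid library to the untreated library for Bhlhe40, Bhlhe41 and Npas2, for Clock and Arntl, and for the 11 listed clock genes (blue lower, red higher). Bhlhe41, Arntl and Cry1 are red in the 3 libraries from 4 h on, and Dbp is blue in them.

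Of 13 other bHLH-PAS genes listed, 11 passed the filter (Sim1 and Sim2 did not), and 0 of the 11 were at least 2-fold from the control at 1 h, 4 h or 8 h. edgeR and DESeq2 called 0 of them, with 0, 2 and 1 at an unadjusted p under 0.05 in edgeR, against 2.42%, 11.6% and 4.51% of all genes. The most abundant were Ncoa1, with 212 CPM in the control, and Clock. Arntl had the largest value against the control, a log2 fold change of 0.90 at 4 h, and without replicate 2 it was the 1 gene of the 11 at least 2-fold higher, against 0 without replicate 1. Of 9 genes induced by HIF proteins with ARNT, 1 was at least 2-fold above the control after 1 h (4.14% of all genes), 2 in the 4 h fit (7.81%) and 0 after 8 h (5.24%). DESeq2 called 1 higher at 1 h (Slc2a1, a glucose transporter) and 1 at 4 h (Vegfa, an angiogenic factor). edgeR called 0 HIF targets, with 1, 4 and 1 at an unadjusted p under 0.05 (2.42%, 11.6% and 4.51% of all genes). Without replicate 1, 1 HIF target (Vegfa) was at least 2-fold above the control at 4 h (5.33%), and without replicate 2 it was 4 (10.6%). Of the 4 listed targets of AHR with ARNT, 3 passed the filter. At least 2-fold higher were 1, 2 and 1 of these 3 at 1 h, 4 h and 8 h, beside the same shares of all genes. edgeR and DESeq2 called 0 AHR targets, and 1, 2 and 1 had an unadjusted p under 0.05 in edgeR. The 4 h count of AHR targets at least 2-fold higher was 2 without either 4 h library. Tiparp, the most abundant of them, had 25.1 CPM in the untreated library, 310.2 after 1 h, 165 and 52.0 in the 4 h pair and 24.9 after 8 h, high in the 1 h library and in replicate 1. In time order, the median log2 fold changes were -0.04, 0.01 and -0.20 for the other bHLH-PAS genes, 0.12, 0.31 and 0.15 for the HIF targets, and 0.22, 1.30 and 0.01 for the AHR targets.

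Genes most like Npas4, Bhlhe40 and Bhlhe41 were found by the root mean square (RMS) difference of the log2 change from the control over the 4 kainic acid libraries, among 14326 genes with at least 50 counts in a library. The 5 nearest to Npas4 were Fos (RMS 1.31), Gm47075 (1.32), Egr2 (1.34), Ccn1 (1.37) and Gm47088 (1.66). Fos and Egr2 are immediate early transcription factors, and Ccn1 codes for a matrix protein. For Bhlhe40 the 5 nearest, Sntg2, Zfp934, Ptma, Rpl38-ps1 and Ntn1, lay at 0.06 to 0.09. For Bhlhe41 they were Parp3, Fam129b, Pxdn, Ly6a and Rnf149, at 0.11 to 0.15. The RMS grows with the size of the change, so it cannot be compared between Npas4 and the other 2 genes. Npas4 changed by 7.46 log2 units at 1 h and Bhlhe40 by 0.53. Some of the nearest genes had few counts, between 50 and 65 for Sntg2, so counting error is large beside such distances. All were picked from these same values, so the lists are a description. Ly6a is a marker of blood vessel cells in the brain, and Pxdn codes for a peroxidase of the extracellular matrix. Gm47075 had 25 counts in the untreated library, 2167 after 1 h, 138 and 46 in the 4 h pair and 42 after 8 h. Gm47088 had 24, 1399, 88 and 22, and 22 counts. Both were chosen for their likeness to Npas4 and reached 50 counts in the 1 h library and replicate 1 alone, so these values are a description.

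Marker genes of the cell types in the tissue were set beside these values. The neuron list (Rbfox3, Snap25, Syt1, Slc17a7, Prox1 and Neurod6) summed to 3710 CPM in the untreated library, 3856 after 1 h, 3684 and 3385 in the 4 h pair and 3229 after 8 h, with Snap25 the most abundant. Snap25 was at 1.15 and 0.989 times the control in the 4 h pair and 0.898 times after 8 h. Rbfox3 was at 0.688 and 0.692 times in the 4 h pair and 0.781 times after 8 h. For Slc17a7 these ratios were 0.791, 0.903 and 0.900. The median log2 fold change of the neuron list was -0.20 at 4 h and -0.21 at 8 h. Interneuron markers summed to 504, 558, 829 and 687, and 504 CPM, led by Gad1. This sum, Gad1 and Gad2 were highest in the 4 h pair, but Pvalb was highest at 1 h, and Slc32a1 was below the control in replicate 1. Astrocyte markers summed to 3533, 3741, 4502 and 4102, and 3991 CPM, led by Slc1a2. Gfap was the 1 astrocyte marker at least 2-fold above the control, at 4 h and 8 h, and DESeq2 called it at both. At 8 h Aqp4 was at 0.965, Aldh1l1 at 1.04, Slc1a2 at 1.01 and Slc1a3 at 1.14 times the control. The astrocyte list's median log2 fold change at 8 h was 0.06. Oligodendrocyte markers summed to 2816, 3442, 3246 and 4151, and 2564 CPM, led by Mbp, and those of oligodendrocyte precursors to 98.1, 104, 96.5 and 118, and 87.5 CPM, led by Pdgfra. Microglia markers summed to 168, 170.3, 135 and 142, and 152 CPM, led by Csf1r, and P2ry12 was the 1 microglia marker at least 2-fold below the control in the 4 h fit, at 0.436 times in replicate 1 and 0.558 times in replicate 2. Endothelial markers summed to 79.4, 76.0, 115 and 70.8, and 96.7 CPM, led by Flt1, and in replicate 1 Flt1 was at 1.75 times the control and Kdr at 0.657 times. Among neuron markers, DESeq2 called Prox1, a marker of dentate granule cells, higher and Neurod6, a marker of pyramidal cells, lower at 4 h. None of the markers was at 0 in any library, and their part in the members' values was not tested.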

How the data were processed

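Each library's deposited file gave raw read counts per gene, which per the submitters' processing notes were made with STAR 2.5.1b and HTSeq on GRCm38.p4; neither the strand setting of the counting nor the annotation release is stated in those notes. Entries that name no gene were left out of totals and tests: reads outside genes (24.7% to 33.1%), ambiguous reads (1.26% to 1.52%) and multiply mapped reads (9.67% to 11.6%). Members were matched by symbol. Counts were fitted with edgeR 4.0.16 in R 4.3.3 (filterByExpr, TMM factors, quasi-likelihood test, Benjamini-Hochberg adjustment over 19768 genes, threshold 0.05, prior count 2 for the fold changes). All 5 libraries shared 1 fit with 1 residual degree of freedom from the 4 h pair, so the single libraries were assumed to vary like it. Alternatives were DESeq2 1.42.0, limma 3.58.1 (voom), other scaling factors, no filter, a prior count of 0.125, an assumed biological coefficient of variation of 0.4, and leaving out either 4 h library. Counts of members and list genes without either 4 h library were chosen after seeing the data. Gene models came from GENCODE M21 (GRCm38), in which 54487 of 55385 gene identifiers of the files, and 8 of 8 members, had the same version; exon length is the union of annotated exons. Figures were drawn with matplotlib 3.10.9 in Python 3.11.15.

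The members and lists were chosen with earlier results of these data known. The rule for named genes took the 8 members, up to 4 examples from each list (most counts or largest change) and the 5 genes most like each of Npas4, Bhlhe40 and Bhlhe41. Further list genes were named after their values were seen, where a count was small or a gene departed from its list. The lists were other bHLH-PAS genes, NPAS4 targets, E-box clock genes, HIF targets, AHR targets, seizure response genes, and markers of neurons, interneurons, astrocytes, oligodendrocytes and their precursors, microglia, endothelial cells, choroid plexus and thalamus. Ratios used exact binomial intervals and levels exact Poisson intervals. Likeness used log2 values with a pseudocount of 0.5.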

Additional observations from a re-analysis of the deposited data

Results flagged for a closer look

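Npas2 lay above the control in both 4 h libraries and below it at 8 h. Its ratio to the control was 1.70 in replicate 1 and 1.46 in replicate 2 at 4 h, and 0.782 at 8 h, each with a counting interval that left out 1. The opposite direction of the 4 h and 8 h effects was not tested as such; the fit of 8 h against 4 h gave an edgeR adjusted p of 0.476.

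Npas3 lay above the control at 1 h and 4 h and below it at 8 h. Its ratio was 1.34 at 1 h, 1.27 in replicate 1 and 1.21 in replicate 2 at 4 h, and 0.772 at 8 h, again with counting intervals that left out 1. The opposite directions of 1 h and 8 h were not tested, and for 8 h against 4 h the edgeR adjusted p was 0.553.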

How the results depend on the processing

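Scaling by library size alone, with no composition factor, put the median log2 fold change of all genes at -0.08 for 1 h and -0.11 for 4 h against the control, at -0.04 for 4 h against 1 h and at 0.12 for 8 h against 4 h, and values under that setting are to be read relative to these medians. The number of genes called depended on the test, the scaling, the filter and the assumed variation. In the order 1 h, 4 h and 8 h against the control, 4 h against 1 h and 8 h against 4 h, edgeR called 0, 1, 0, 1 and 0 genes. Library size alone gave 57, 237, 22, 67 and 120, and DESeq2 gave 56, 238, 33, 109 and 129. An assumed coefficient of variation of 0.4 gave 40, 81, 12, 33 and 48. No filter gave 285, 1300, 279, 725 and 957, of 32732 genes tested in place of 19768. RLE factors gave 0 in each, as did limma-voom. The cause was not tested.

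Npas4 passed the threshold in 2 settings. At 1 h and 4 h, 40 and 81 of 19768 genes passed with the assumed variation, and 285 and 1300 of 32732 with no filter. With the assumed variation the Npas4 log2 fold change was 7.43 at 1 h (edgeR adjusted p 1.37e-07) and 4.07 at 4 h (edgeR adjusted p 0.00375). With no filter it was 7.43 (edgeR adjusted p 1.76e-126) and 4.05 (edgeR adjusted p 1.04e-53). Over the 7 tested alternatives the Npas4 adjusted p ran up to 1 at 1 h and 0.738 at 4 h. The 1 h comparison set 1 library against 1, and the 4 h replicates were 26.4 times apart for Npas4. The small p values with no filter are therefore not to be read as strength of evidence. With limma-voom the Npas4 log2 fold change was 2.62 at 4 h against the control. It was -4.84 at 4 h against 1 h and -2.24 at 8 h against 4 h. The 4 h value of Npas4 against the control ranged from 0.32 to 5.01 when either 4 h library was left out. Bhlhe41 at 4 h passed with no filter, at 0.94 (edgeR adjusted p 0.00876, the others up to 1.00), and ranged from 0.76 to 1.12 when either was left out; Bhlhe40 at 4 h ranged from 0.12 to 0.20. With no filter Npas2 at 8 h against 4 h passed as well, at -1.01 (edgeR adjusted p 0.0428), where 957 of 32732 genes passed. For all of these the cause was not tested.

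Below any threshold, the sign differed with library size alone for Arnt at 4 h against the control (-0.11) and against 1 h (-0.0124), for Arnt2 at 1 h (-0.0455) and at 8 h against 4 h (0.10), and for Bhlhe41 at 8 h against 4 h (0.13), and with limma-voom for the last (0.0061). Relative to the median of all genes in each setting, none of these signs differed. On that scale Bhlhe41 at 8 h against 4 h was 0.0165 in the edgeR fit with the filter, and -0.0028 with no filter. With 4 h replicate 1 left out, directions turned for Arnt at 4 h against the control (-0.15) and against 1 h (-0.13), and at 8 h against 4 h for Npas4 (0.06), Npas1 (-0.0072) and Bhlhe40 (-0.0077). With replicate 2 left out they turned at 8 h against 4 h for Arnt (-0.11) and Bhlhe41 (0.19). Other member results kept their direction in these alternatives and their side of the threshold in those with a test, apart from Npas4 at 4 h against 1 h and at 8 h against 4 h, which passed with no filter and with the assumed variation, and Bhlhe41 at 4 h against 1 h, which passed with no filter. The clock genes at least 2-fold lower at 4 h numbered 2, and 1 without either 4 h library, and the HIF targets at least 2-fold higher numbered 2, 1 without replicate 1 and 4 without replicate 2. No paired analysis was possible because only the 4 h condition has replicate numbers. With 1 residual degree of freedom, the spread behind every test rests on the 4 h pair, apart from the setting with the assumed variation. The control, 1 h and 8 h values have no replicate check.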

Other observations

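Gm47075 and Gm47088, the unclassified transcripts near Npas4 in likeness, both lie inside the gene body of Homer1 on chromosome 13, on its strand and outside its annotated exons (93312041 to 93314055 and 93317427 to 93319065). Homer1, a scaffold of the postsynaptic density with short activity-linked transcripts, was looked up after their values were seen. It had 217 CPM in the untreated library, 1332 after 1 h, 3760 and 1348 in the 4 h pair and 306 after 8 h. Gm47075 and Gm47088 were chosen for their likeness to Npas4, so their values were not compared with those of Homer1.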
